A study of Mus musculus with 12 samples.

Results

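A set of 8 genes of inflammatory and lytic cell death were followed in mouse pancreatic islets: the caspase genes Casp1, Casp4, Casp8 and Casp12, the pore-forming gene Gsdmd, and the necroptosis genes Ripk1, Ripk3 and Mlkl. They were taken by symbol from the full table of raw counts, in which they are 8 of 55536 rows, and all 8 passed the filter on low counts that left 19800 genes for testing. Islets are clusters of endocrine cells, most of them insulin-producing beta cells. Total RNA was sequenced from islets of 16-week-old mice on a mixed C57BL/6J background. The control group is titled PTPN2 +/+ and carries the genotype label fl/fl, and the other genotype is titled PTPN2 -/- and called Ptpn2-bKO in the protocol, a name taken here to mean a beta-cell knockout; the sources used here do not name the driver of the recombinase. Each genotype had 3 untreated libraries and 3 libraries of islets exposed for 24 h to the cytokines IFN-gamma, TNF-alpha and IL-1beta. Per the protocol the islets came from 3 mice of each genotype, so some of the 6 libraries of a genotype come from the same mouse, without the labels saying which. The tests treat the 12 libraries as independent, and their p-values measure the spread between these libraries.

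Pyroptosis and necroptosis are forms of cell death in which the plasma membrane is opened from within. In pyroptosis, inflammasomes activate Caspase-1, and cytosolic bacterial lipopolysaccharide activates the product of mouse Casp4. Both proteases cut gasdermin D, whose released end forms pores, and Caspase-1 also matures IL-1beta and IL-18. In necroptosis, RIPK1 and RIPK3 assemble after signals such as TNF, RIPK3 phosphorylates MLKL, and MLKL then damages the membrane, while Caspase-8 holds this route back by cutting both kinases and can start apoptosis instead. The same cytokines are widely used on isolated islets to model the immune attack of type 1 diabetes. All 8 proteins are switched on by cleavage, assembly or phosphorylation, so RNA levels give the supply of each component and not its activity.

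The libraries held 47064061 to 107515565 counts, and a member's count in a library ran from 45 (Casp1, untreated islets labelled bKO) to 11746 (Mlkl, treated controls). Insulin and glucagon RNA were abundant, with Ins2 at 76066 CPM, the count relative to the TMM-scaled library size, and Gcg at 19390.2 CPM in untreated controls (means, n = 3). Ptpn2, the targeted gene, was not reduced in bKO-labelled libraries. Untreated means were 31.0 CPM in controls and 35.3 in islets labelled bKO (log2 difference 0.19, SE 0.098, edgeR adjusted p = 0.989), and treated means were 85.9 and 101 (0.23, SE 0.097, edgeR adjusted p = 0.26). A count over the whole gene does not test the removal of an exon, and the genotype is written as a label throughout. Principal component 1 of the 2000 most variable genes held 79.2% of their variance and separated treated from untreated libraries. Treated replicate 2 labelled bKO lay apart on principal component 2 (5.18% of the variance). Its summed ductal markers (7 genes) were at 6199.5 CPM against 1423 to 2880 in the other 11 libraries, and its stellate and fibroblast markers (9 genes) at 8333 against 1561 to 4422. Its summed beta cell markers (10 genes) were the lowest, at 90117 CPM against 124581 to 177722. Results that rest on this library are given with and without it.

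RefSeq promoter windows (GRCm38.p6, 250 bases before to 50 after a start site) were at hand for 7 of the 8 members, 9 windows in all; Gsdmd has none. The motifs searched, on both strands, were the ISRE core GAAANNGAAA, which interferon regulatory factors bind, the GAS element TTCNNNGAA, which STAT dimers bind, and the kappa B form GGGNNNTTCC. Of 32851 windows of the same length, 3.44% held the ISRE core, 8.3% the GAS element and 5.56% the kappa B form. Casp4, Casp12 and one of the windows of Ripk1 held matches, and the windows of Casp1, Casp8, Mlkl and Ripk3 held none of these letters. The windows with matches are printed with the matching bases in capitals, and the Mlkl window is shown as one without a match in a gene with a large cytokine response.
Casp4, chr9:5308599-5308898, plus strand: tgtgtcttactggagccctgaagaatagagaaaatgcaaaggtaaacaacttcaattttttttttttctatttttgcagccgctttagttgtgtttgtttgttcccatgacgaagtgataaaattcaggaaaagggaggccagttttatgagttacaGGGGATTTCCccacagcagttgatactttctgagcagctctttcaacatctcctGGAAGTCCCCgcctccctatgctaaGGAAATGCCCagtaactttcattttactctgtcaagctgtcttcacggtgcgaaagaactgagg
Casp12, chr9:5345226-5345525, plus strand: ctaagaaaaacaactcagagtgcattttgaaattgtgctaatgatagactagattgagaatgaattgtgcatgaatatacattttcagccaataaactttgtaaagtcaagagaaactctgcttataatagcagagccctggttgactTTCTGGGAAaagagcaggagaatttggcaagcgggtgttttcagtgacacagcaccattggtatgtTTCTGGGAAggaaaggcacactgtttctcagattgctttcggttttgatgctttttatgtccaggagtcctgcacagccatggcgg
Ripk1, second window, chr13:34002624-34002923, plus strand: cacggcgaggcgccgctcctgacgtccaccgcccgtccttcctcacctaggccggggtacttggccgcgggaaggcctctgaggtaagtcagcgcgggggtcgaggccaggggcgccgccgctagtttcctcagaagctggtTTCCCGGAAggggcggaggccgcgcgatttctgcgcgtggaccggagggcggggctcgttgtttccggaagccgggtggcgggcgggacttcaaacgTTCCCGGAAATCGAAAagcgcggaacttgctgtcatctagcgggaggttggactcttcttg
Mlkl, chr8:111338156-111338455, minus strand: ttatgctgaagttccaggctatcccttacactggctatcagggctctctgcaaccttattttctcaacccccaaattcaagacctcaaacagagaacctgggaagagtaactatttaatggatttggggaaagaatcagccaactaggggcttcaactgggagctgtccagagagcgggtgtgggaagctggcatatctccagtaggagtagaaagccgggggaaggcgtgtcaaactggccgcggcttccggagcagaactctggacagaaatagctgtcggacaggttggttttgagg
The Casp4 capitals are 3 kappa B matches, starting 93, 39 and 14 bases before the start site, the first on the plus strand and the others on the minus strand. A second Casp4 window, for a start site 11 bases further on, holds the same 3 matches. In Casp12 they are 2 copies of the same GAS letters, 102 and 36 bases before the start. In Ripk1 they are a GAS match 108 bases before the start and, in 1 run, a second GAS match that overlaps an ISRE core 5 bases before the start. A match is a description of the letters and was not tested for binding.

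Cytokines raised all 8 genes in both genotypes. The inflammatory caspases Casp4 and Casp1 and the necroptosis effector Mlkl rose more than 10-fold, Gsdmd and Casp12 rose 4.28-fold to 7.05-fold, and Ripk1, Ripk3 and Casp8 rose least. In control islets 8 of 8 members were called higher (edgeR quasi-likelihood test, Benjamini-Hochberg adjusted p under 0.05 over all 19800 genes), where 26.8% of all genes tested were called higher and 33.9% lower. Under the bKO label it was again 8 of 8, where 28.8% of genes were called higher and 33.6% lower. The members' median log2 fold change was 2.42 in controls, where the median of all genes was -0.10, and 2.73 in islets labelled bKO, where that of all genes was -0.06. The members were chosen with earlier results of these data known, so the contrast with all genes is a description and no test. Scaling by library totals alone lowered the median of all genes by a further 0.23 in both genotypes and changed the split of calls from 5298 higher and 6704 lower to 3737 and 8998 in controls, and from 5711 and 6647 to 4000 and 8693 in islets labelled bKO. All 8 members stayed above 0 under that scaling, but in controls Casp8 and Ripk3 were then no longer called. In no member did treated and untreated libraries of a genotype overlap, but the share of all genes without overlap is not given here. Without treated replicate 2 labelled bKO, the count was 8 of 8 in both genotypes, with medians of 2.48 and 2.5.

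**Figure D1:**
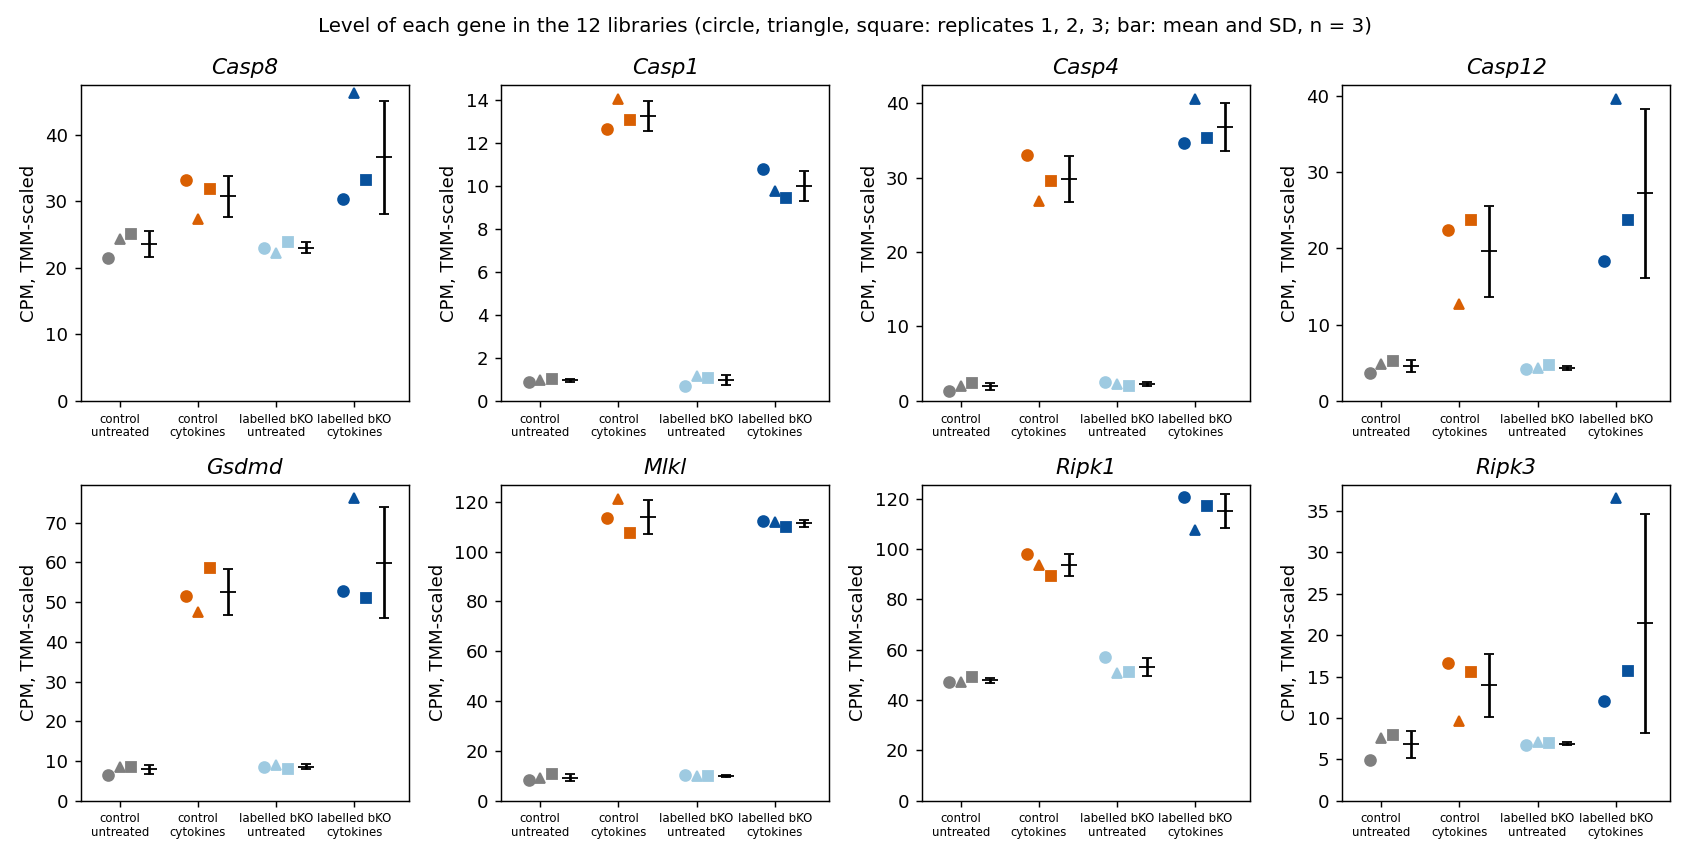
Level of each of the 8 genes (CPM, TMM-scaled, linear axis from 0) in the 12 libraries, by group; circles, triangles and squares are replicates 1, 2 and 3, and the bar is the mean with SD (n = 3). Treated libraries lie above untreated ones of their genotype in every panel, and treated replicate 2 labelled bKO (dark blue triangle) is highest for Casp4, Casp8, Casp12, Gsdmd and Ripk3.

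Casp1, the protease that inflammasomes activate, was at about 1 CPM in untreated islets. In controls its 3 libraries gave 0.877, 0.989 and 1.01 CPM untreated and 12.7, 14.0 and 13.1 CPM with cytokines. The 2 sets lay more than 10-fold apart, a log2 fold change of 3.78 (SE 0.17, edgeR adjusted p = 1.2e-08). In islets labelled bKO the values were 0.688, 1.14 and 1.07 CPM untreated and 10.8, 9.79 and 9.45 CPM treated (log2 3.37, SE 0.17, edgeR adjusted p = 2.6e-08). Every treated library labelled bKO was below every treated control library.

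Casp4, whose product senses lipopolysaccharide in the cytosol, had the largest response of the 8 genes in both genotypes. Control libraries gave 1.39, 2.03 and 2.39 CPM untreated and 33.1, 26.8 and 29.5 CPM treated, log2 3.93 (SE 0.18, edgeR adjusted p = 1.1e-08). Libraries labelled bKO gave 2.49, 2.20 and 1.97 CPM untreated and 34.6, 40.5 and 35.3 CPM treated, log2 4.05 (SE 0.18, edgeR adjusted p = 9.2e-09). Of all genes tested, 98.5% had a lower log2 fold change than Casp4 in each genotype. Here it was the treated libraries labelled bKO that all lay above the treated controls.

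Casp12, a caspase of the inflammatory group that in mice has been linked to stress of the endoplasmic reticulum, varied more between treated libraries. Controls went from 3.66, 4.79 and 5.23 CPM to 22.3, 12.7 and 23.7 CPM (log2 2.10, SE 0.29, edgeR adjusted p = 8.2e-05). Islets labelled bKO went from 4.13, 4.27 and 4.64 CPM to 18.3, 39.6 and 23.7 CPM (log2 2.65, SE 0.30, edgeR adjusted p = 1.4e-05). Replicate 2 was the lowest treated control and the highest treated library labelled bKO. Without the latter the response of islets labelled bKO was log2 2.33 (SE 0.22, edgeR adjusted p = 3.0e-06).

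Gsdmd encodes the pore-forming substrate that these caspases cut. Its control libraries rose from 6.58, 8.55 and 8.48 CPM to 51.5, 47.4 and 58.7 CPM, log2 2.74 (SE 0.17, edgeR adjusted p = 1.2e-07). Libraries labelled bKO rose from 8.60, 9.06 and 7.88 CPM to 52.8, 76.1 and 51.0 CPM, log2 2.82 (SE 0.17, edgeR adjusted p = 9.1e-08). Treated replicate 2 labelled bKO was the highest library, and without it that response was log2 2.67 (SE 0.12, edgeR adjusted p = 3.8e-09).

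Mlkl, the effector that damages the membrane in necroptosis, had treated libraries that lay close together in both genotypes. Control libraries went from 8.22, 8.95 and 10.7 CPM to 113, 121 and 107 CPM, a 12.3-fold rise with a 95% interval of 10.6 to 14.2 (log2 3.62, SE 0.097, edgeR adjusted p = 2.3e-10). Islets labelled bKO went from 10.5, 9.74 and 9.70 CPM to 112, 112 and 109.9 CPM, an 11.2-fold rise with an interval of 9.64 to 12.9 (log2 3.48, SE 0.097, edgeR adjusted p = 3.7e-10). The 3 treated libraries labelled bKO had a coefficient of variation of 1.2%, and replicate 2 was not apart from the others in this gene.

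Ripk3, the kinase that phosphorylates MLKL, rose much less than Mlkl and was the least even of the 8. In controls its libraries gave 4.95, 7.56 and 7.97 CPM untreated and 16.7, 9.57 and 15.5 CPM treated (log2 1.02, SE 0.36, edgeR adjusted p = 0.029). Libraries labelled bKO gave 6.68, 7.05 and 6.92 CPM untreated and 12, 36.6 and 15.6 CPM treated (log2 1.64, SE 0.37, edgeR adjusted p = 0.0023). The value of 36.6 CPM belongs to replicate 2, and without it the response was log2 1.06 (SE 0.23, edgeR adjusted p = 0.0015). The control call did not hold without replicate 1 or 2 of the untreated controls (edgeR adjusted p = 0.106 and 0.0536) or replicate 1 or 3 of the treated controls (0.092 and 0.0778). It was also lost with library totals alone (log2 0.79, edgeR adjusted p = 0.0903) and with limma-voom (log2 0.95, limma adjusted p = 0.0559).

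Ripk1, the kinase and scaffold of the TNF receptor complex, rose close to 2-fold with little spread. Controls went from 47.1, 47.2 and 49.1 CPM to 98.0, 93.5 and 89.3 CPM (log2 0.97, SE 0.07, edgeR adjusted p = 4.5e-07). Islets labelled bKO went from 57.1, 50.7 and 51.0 CPM to 121, 108 and 117 CPM (log2 1.12, SE 0.07, edgeR adjusted p = 1.4e-07). In each treatment all 3 libraries labelled bKO lay above all 3 controls, without an edgeR call between genotypes. Exons of Ripk1 overlap those of Serpinb6a on the opposite strand and of a pseudogene, Gm17084, on the same strand. The sources used here do not state the strand setting of the counting, so some reads of Ripk1 are uncertain.

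Casp8, the initiator caspase of death receptors, moved least. Its control libraries gave 21.4, 24.3 and 25.05 CPM untreated and 33.2, 27.3 and 31.9 CPM treated, log2 0.38 (SE 0.14, edgeR adjusted p = 0.033). Libraries labelled bKO gave 23.0, 22.2 and 23.9 CPM untreated and 30.4, 46.3 and 33.2 CPM treated, log2 0.67 (SE 0.14, edgeR adjusted p = 0.0015). Without treated replicate 2 labelled bKO the responses were log2 0.45 (edgeR adjusted p = 3.9e-04) in controls and 0.52 (3.2e-04) in islets labelled bKO. The control call was lost without replicate 1 or 2 of the untreated controls (edgeR adjusted p = 0.117 and 0.0632), without replicate 1 or 3 of the treated controls (0.104 and 0.0846), and with library totals alone (log2 0.15, edgeR adjusted p = 0.415).

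**Figure D2:**
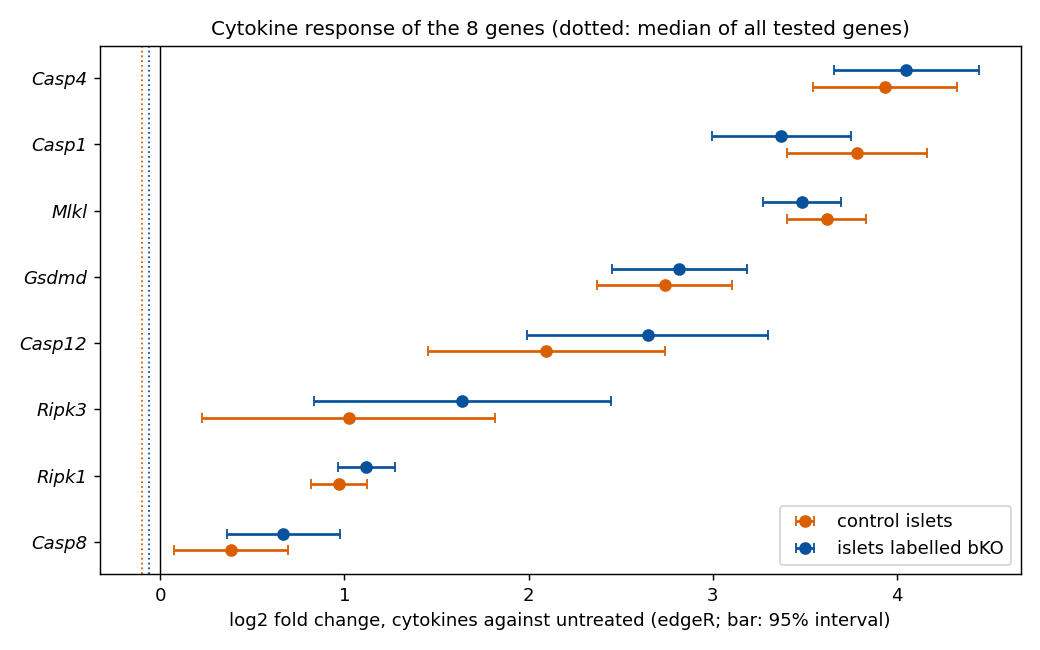
Log2 fold change of each gene, cytokines against untreated, in control islets (orange) and islets labelled bKO (blue), with 95% intervals from the edgeR fit and dotted lines at the medians of all tested genes (-0.10 and -0.06). All 16 intervals lie above 0, from Casp8 at 0.38 in controls to Casp4 at 4.05 in islets labelled bKO.

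Per kilobase of merged exons (GENCODE M21, GRCm38), which allows levels of different genes to be set side by side, the order of the members changed with cytokines. In untreated controls Casp8 was first at 8.15 CPM per kb, followed by Ripk1 at 5.73, Mlkl at 4.03, Gsdmd at 3.31, Ripk3 at 2.98, Casp12 at 1.19, Casp1 at 0.641 and Casp4 at 0.522. The libraries of Mlkl and Gsdmd overlapped, as did those of Gsdmd and Ripk3 and of Casp1 and Casp4, and the other neighbours in that order did not. In treated controls Mlkl was first at 49.5 CPM per kb (46.7 to 52.6 over the libraries) and Gsdmd second at 22.1 (19.96 to 24.7). They were followed by Ripk1 at 11.2, Casp8 at 10.6, Casp1 at 8.86, Casp4 at 8.03, Ripk3 at 6.07 and Casp12 at 5.10. From Ripk1 down, neighbours overlapped except Casp8 and Casp1, whose nearest libraries were at 9.44 and 9.38. The first 4 places were the same in treated islets labelled bKO, led by Mlkl at 48.4 and Gsdmd at 25.2 CPM per kb, with Casp1 last at 6.69.

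**Figure D3:**
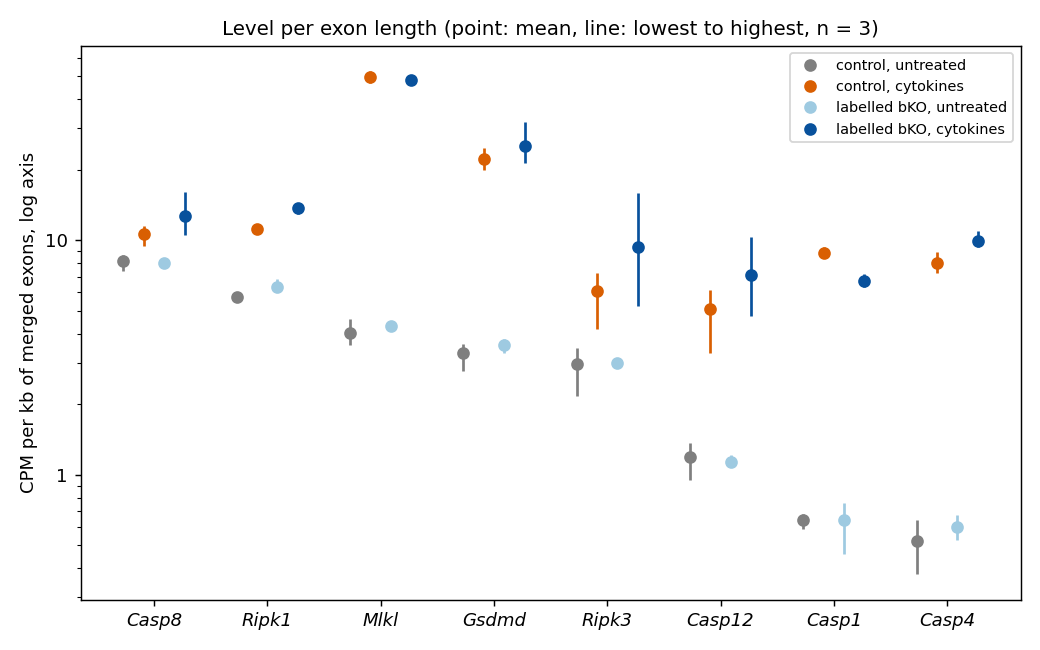
Level per kilobase of merged exons (CPM per kb, log axis) of the 8 genes, ordered by untreated controls; points are group means and lines run from the lowest to the highest of 3 libraries. Mlkl moves from 4.03 to 49.5 in controls and passes Casp8 and Ripk1, while Casp8 moves from 8.15 to 10.6.

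The labelled genotypes were compared within each treatment, which asks whether levels of these genes differed between the labels. Ptpn2 encodes a phosphatase that acts on JAK and STAT proteins. Its RNA was not lower under the bKO label, and a count over the whole gene does not test the removal of an exon. Whether Ptpn2 was lost in these islets was not tested. The differences are therefore given for the labels and not for loss of Ptpn2. Without cytokines 0 of 8 members were called by edgeR, where 0.0758% of all genes were, and 0 of the 8 had an unadjusted p under 0.05, as 1099 of all genes had. The log2 differences, labelled bKO against control, ran from -0.07 (Casp12) to 0.19 (Casp4). Their 95% intervals were narrowest for Ripk1 (-0.004 to 0.30) and Mlkl (-0.10 to 0.30) and widest for Ripk3 (-0.79 to 0.81). The 2 genotypes overlapped in 7 members, and in Ripk1 the lowest library labelled bKO (50.7 CPM) was above the highest control (49.1 CPM; log2 0.15, SE 0.069, edgeR adjusted p = 0.919). How many of all genes lacked overlap is not given here. Of the 12 marker lists, summed levels of the untreated genotypes did not overlap in 2: acinar markers (4908 to 7948 CPM in controls, 2229 to 3672 CPM under the bKO label) and T and NK cell markers. No gene of either list was called between the untreated genotypes, and the T and NK cell sum holds only 2 of 9 listed genes.

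With cytokines 0 of 8 members were called by edgeR, where 0.232% of all genes were, and 2 members, Ripk1 and Casp1, had an unadjusted p under 0.05, as 3530 of all genes had. Ripk1 averaged 93.6 CPM (SD 4.3, n = 3) in treated controls, against 115 (SD 6.7, n = 3) in treated islets labelled bKO, a log2 difference of 0.30 (SE 0.069, edgeR adjusted p = 0.0923). DESeq2 called it (log2 0.28, DESeq2 adjusted p = 0.0322), and it was the only member called in this comparison by any of the alternatives; over them its adjusted p ran from 0.0322 to 0.447. Casp1 went the other way, from 13.3 CPM (SD 0.71, n = 3) to 10.0 (SD 0.70, n = 3), a log2 difference of -0.41 (95% interval -0.73 to -0.08, edgeR adjusted p = 0.217). Casp4, its neighbour on the chromosome, averaged 29.8 CPM (SD 3.1, n = 3) and 36.8 (SD 3.2, n = 3), log2 0.31 (-0.03 to 0.64, edgeR adjusted p = 0.316). In Ripk1, Casp1 and Casp4 the 3 libraries of one genotype did not overlap the 3 of the other, and the remaining 5 members overlapped. None of these 3 genes was called by edgeR, and the share of all genes without overlap is not given here. Mlkl was at 114 and 111 CPM, a log2 difference of -0.03 whose interval ran from -0.22 to 0.16. The marker sums that did not overlap between the treated genotypes were also 2 of 12: alpha cell markers (8505 to 11244 CPM in controls, 6373 to 7737 CPM under the bKO label) and neutrophil markers (28.7 to 33.1 and 44.8 to 52.2 CPM). No gene of either list was called in this comparison, and the neutrophil sum holds only 3 of 7 listed genes.

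The differences of Ripk3, Casp12, Gsdmd and Casp8 moved with single libraries, most of all with treated replicate 2 labelled bKO. On a log2 scale this library was above the mean of its group's other libraries by 1.42 for Ripk3, 0.93 for Casp12, 0.55 for Gsdmd and 0.54 for Casp8, but by only 0.21 for Casp4 and 0.01 for Mlkl, and it was below them by -0.05 for Casp1 and -0.14 for Ripk1. With all libraries the genotype differences under cytokines were 0.63 for Ripk3 (SE 0.36, edgeR adjusted p = 0.361), 0.48 for Casp12 (SE 0.28, 0.368), 0.19 for Gsdmd (SE 0.15, 0.508) and 0.25 for Casp8 (SE 0.14, 0.352). Without it they were -0.02 for Ripk3 (edgeR adjusted p = 0.989), 0.10 for Casp12 (0.909), -0.03 for Gsdmd (0.952) and 0.03 for Casp8 (0.925). Those of Ripk1, Casp1 and Casp4 were then 0.33 (edgeR adjusted p = 0.0846), -0.41 (0.355) and 0.22 (0.623). Leaving out treated control replicate 2 instead gave 0.41 for Ripk3 (edgeR adjusted p = 0.719), 0.24 for Casp12 (0.765), 0.12 for Gsdmd (0.828) and 0.17 for Casp8 (0.707), and leaving out treated replicate 1 labelled bKO gave 0.91 (edgeR adjusted p = 0.120), 0.70 (0.136), 0.27 (0.312) and 0.37 (0.125). Replicate 2 of the treated controls was the lowest library of its group for Ripk3, Casp12, Casp8, Gsdmd and Casp4, and it also had the lowest summed ductal markers (1423 CPM) and stellate and fibroblast markers (1561 CPM) of all 12 libraries. The part of these cell types in the levels of the members was not tested, and in bulk RNA more cells of a type cannot be told apart from more RNA per cell. Mlkl was as high in these libraries as in the others of its treatment.

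**Figure D4:**
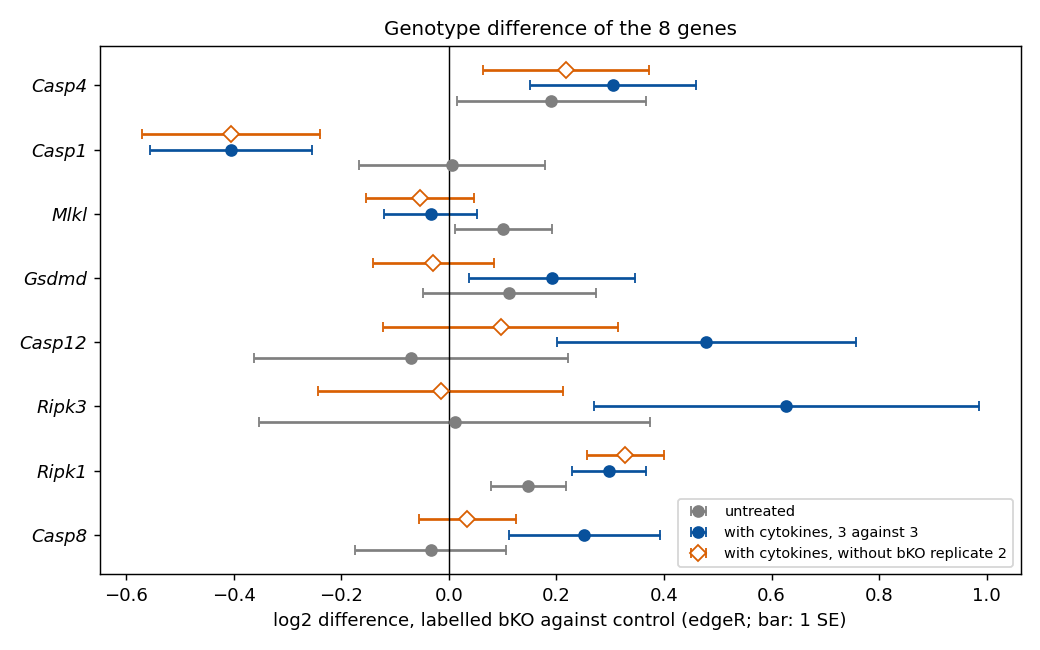
Log2 difference, labelled bKO against control, of the 8 genes without cytokines (grey), with cytokines (blue) and with cytokines after leaving out treated replicate 2 labelled bKO (open orange diamonds); bars are 1 SE of the edgeR fit. Ripk3 moves from 0.63 to -0.02 and Casp12 from 0.48 to 0.10, while Casp1 stays at -0.41 and Ripk1 near 0.30.

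**Figure D5:**
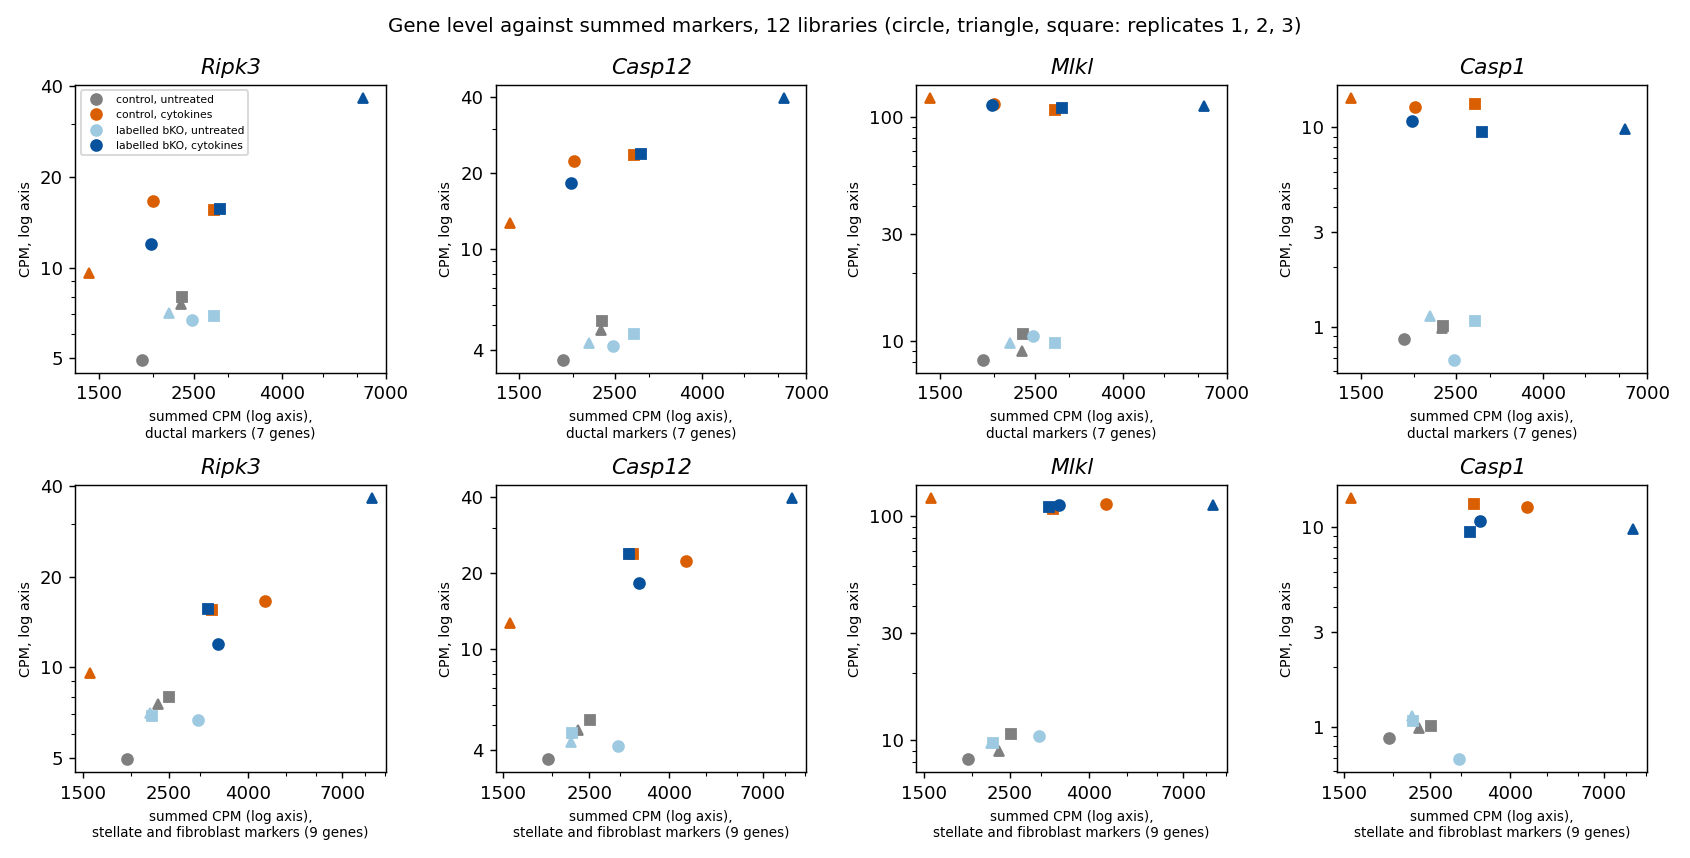
Level of Ripk3, Casp12, Mlkl and Casp1 (CPM, log axis) in each library against the summed CPM of ductal markers (upper row) and of stellate and fibroblast markers (lower row, log axes); shapes are replicates 1, 2 and 3. Ripk3 and Casp12, chosen for their deviation in treated replicate 2 labelled bKO, are highest in that library, at 36.6 and 39.6 CPM, and Mlkl is at 112 CPM there, as in replicate 1.

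The difference between the cytokine responses of the 2 genotypes was called for 0 of 8 members, where 0% of all genes were called by edgeR; 0 members and 2162 of all genes had an unadjusted p under 0.05, and DESeq2 called 0 members and 183 genes. Casp1 had the lowest estimate, -0.41 (95% interval -0.91 to 0.09, edgeR adjusted p = 0.522), and Ripk3 the highest, 0.62 (-0.50 to 1.73, edgeR adjusted p = 0.644), which became -0.02 without treated replicate 2 labelled bKO. The interval was narrowest for Ripk1 (-0.06 to 0.36). These comparisons use the same 12 libraries as those above.

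Markers of other cell types also moved with cytokines. Of 16 macrophage markers, 13 were higher and 1 lower in controls, and 14 were higher and 0 lower in islets labelled bKO. Their summed level went from 214 to 259 CPM in untreated to 591 to 704 in treated controls, and from 208 to 282 to 629 to 830 CPM in islets labelled bKO. Cd68, a lysosomal protein of macrophages, rose from 22.5 CPM (SD 2.7, n = 3) to 87.9 (SD 2.6, n = 3) in controls (log2 1.97, edgeR adjusted p = 1.0e-06). Macrophages are known to express Casp1, Casp4, Gsdmd and Mlkl, and their part in the response of these genes was not tested. Among neutrophil markers, the calcium-binding protein genes S100a8 and S100a9 and the receptor gene Csf3r were called higher in both genotypes, while Cxcr2, Mpo, Ly6g and Retnlg were at 0 to 17 counts in all 12 libraries together. Of 9 T and NK cell markers 2 were tested: the kinase gene Lck was called higher and the T cell receptor gene Trac lower in each genotype, and their sum went from 3.38 to 4.49 CPM to 7.26 to 10.7 in controls and from 4.53 to 5.31 CPM to 8.58 to 15.9 in islets labelled bKO. Cd3d, Cd3e and Cd3g had 22 to 43 counts in all. The 4 tested B cell markers summed to 256 CPM in treated replicate 2 labelled bKO and to 1.68 to 92.9 CPM in the other libraries. Endothelial markers were lower in 12 of 12 genes in controls and 11 of 12 in islets labelled bKO. Acinar markers were lower in 10 of 11 genes in controls and 5 of 11 in islets labelled bKO, with mean sums going from 6638 to 1185 CPM and from 3018 to 1763 CPM. Alpha cell markers were lower in 6 of 7 and 7 of 7 genes (mean sums 19962 to 9521 and 17714 to 7193 CPM), and delta and PP cell markers in 3 of 4 in each genotype (5764 to 2210 and 5817 to 1580 CPM). Of 10 beta cell markers, 7 were lower and 0 higher in each genotype, while mean sums went from 129837 to 161559 and from 129243 to 133448 CPM. The last mean rests on replicate 2: treated replicates 1, 2 and 3 labelled bKO were at 162537, 90117 and 147688 CPM. With cytokines the beta cell markers G6pc2 and Ucn3 were called lower under the bKO label than in controls. Their log2 differences were -1.08 and -1.22 (edgeR adjusted p = 0.0334 for both). The other 8 beta cell markers were not called in this comparison. With only the treated groups in the fit, no gene was called in it. The part of these cell types in the members' responses was not tested.

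The other genes of these pathways were counted in lists chosen by function. Of 16 tested inflammasome sensors and adaptors, 10 were higher and 1 lower in controls and 11 and 1 in islets labelled bKO, with median log2 fold changes of 0.72 and 0.96. Nlrp3, the sensor of the most studied inflammasome, rose from 1.10 CPM (SD 0.42) to 7.09 (SD 1.8) in controls, log2 2.69 (SE 0.29, edgeR adjusted p = 1.2e-05). Naip2 and P2rx7, the latter an ATP-gated channel upstream of that inflammasome, rose by log2 0.71 and 0.73, and Txnip, a thioredoxin inhibitor, fell from 222 to 166 CPM (log2 -0.42, SE 0.077). In islets labelled bKO the log2 fold changes of Nlrp3, Naip2, P2rx7 and Txnip were 2.80, 0.56, 0.99 and -0.33.

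Of 11 tested gasdermins and products of pyroptosis, 8 were higher in each genotype, with 1 lower in controls and 0 in islets labelled bKO; 7 of the 18 listed genes did not pass the filter on low counts. Ninj1, which ruptures the membrane after pores have formed, rose from 60.9 CPM (SD 2.8) to 185 (SD 14) in controls, log2 1.6 (SE 0.073, edgeR adjusted p = 1.1e-08). Chmp4b, a part of the machinery that repairs membranes, rose from 180.5 CPM (SD 3.1) to 594 (SD 65), log2 1.72. The substrate of Caspase-1, Il1b, rose from 2.10 to 12.7 CPM (log2 2.60, SE 0.22) and Il1a from 0.839 to 12.1 CPM (log2 3.85, SE 0.27). With the bKO label these 4 genes rose by log2 1.65, 1.75, 3.03 and 4.46. Il33, an alarm cytokine released by damaged cells, was the only gene of the 8 pathway lists called between genotypes. With cytokines it was at 4.22 CPM (SD 0.66, n = 3) in controls, against 9.37 (SD 1.1, n = 3) in islets labelled bKO (log2 1.15, SE 0.19, edgeR adjusted p = 0.0405), without overlap, and no gene was called in this comparison when only the treated groups entered the fit.

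Among 26 death receptor and checkpoint genes, 21 were higher and 2 lower in each genotype (median log2 0.79 and 0.74). The death receptor gene Fas rose from 1.86 CPM (SD 0.19) to 29.2 (SD 2.0) in controls (log2 3.97, SE 0.10, edgeR adjusted p = 2.0e-10). Inhibitors of TNF-induced death rose as well: Tnfaip3, a ubiquitin-editing enzyme, by log2 4.46 (SE 0.091), its partner Tnip1 by 2.87 (SE 0.095) and the ubiquitin ligase gene Birc3 by 3.58 (SE 0.12). Fas, Tnfaip3, Tnip1 and Birc3 rose in islets labelled bKO by log2 4.03, 4.51, 2.80 and 3.18. Of 15 triggers and partners of necroptosis, 12 were higher and 2 lower in controls and 11 and 2 in islets labelled bKO (median 0.89 and 0.84). Zbp1, a sensor of Z-form nucleic acid that binds RIPK3, rose from 2.34 CPM (SD 0.88, n = 3) to 134 (SD 10.5, n = 3) in controls, log2 5.83 (SE 0.29, edgeR adjusted p = 2.2e-08). Adar, an RNA-editing enzyme that limits ZBP1 activation, rose by log2 1.20, the adaptor gene Ticam1 by 1.10 and the inositol phosphate kinase gene Itpk1 by 1.54. The rises of Zbp1, Adar, Ticam1 and Itpk1 in islets labelled bKO were log2 5.88, 0.86, 0.84 and 1.47.

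Of 20 tested genes among the other caspases and the mitochondrial route, 10 were higher in each genotype, with 5 lower in controls and 2 in islets labelled bKO (median 0.23 and 0.34). In controls Bid, whose product Caspase-8 cleaves, rose from 4.74 CPM (SD 0.69) to 27.5 (SD 0.79) with cytokines (log2 2.53, SE 0.11, edgeR adjusted p = 8.7e-09), while Dffa, the inhibitor of a caspase-activated nuclease, fell from 30.1 to 14.0 CPM (log2 -1.11). Bid and Dffa had log2 fold changes of 2.23 and -1.31 in islets labelled bKO. Among 8 inhibitors of caspases, granule proteases and other proteases, 5 were higher and 2 lower in controls (median 0.66). In islets labelled bKO 6 were higher and 0 lower (median 1.26). Serpinb9, an inhibitor of granzyme B, rose by log2 1.67, the cystatin gene Cstb by 1.37, the calpain inhibitor gene Cast by 1.09 and Serpinb6a by 0.74 in controls, and by 2.05, 1.74, 1.40 and 1.12 in islets labelled bKO.

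Of 16 genes of endoplasmic reticulum stress and calpains, 13 were higher in each genotype, with 1 lower in controls and 2 in islets labelled bKO (median 0.58 and 0.64). The stress transcription factor genes Ddit3 and Atf3 both rose by log2 3.67 in controls (SE 0.24 and 0.13), Trib3 by 1.83 and the adaptor gene Traf2 by 1.20. In islets labelled bKO Ddit3, Atf3, Trib3 and Traf2 rose by log2 3.44, 3.65, 1.77 and 1.04. Of 20 interferon, STAT and NF-kB regulators and guanylate-binding genes, 19 were higher and 0 lower in controls and 19 and 1 in islets labelled bKO (median 2.89 and 2.38). The transcription factor gene Irf1 rose from 63.8 CPM (SD 3.0, n = 3) to 855 (SD 27, n = 3) in controls, log2 3.74 (SE 0.091, edgeR adjusted p = 1.5e-10). Gbp2, whose family helps the product of Casp4 reach lipopolysaccharide on bacteria, rose by log2 9.0, Gbp7 by 4.18 and the GTPase gene Irgm1 by 4.25. Irf1, Gbp2, Gbp7 and Irgm1 rose in islets labelled bKO by log2 3.51, 8.65, 3.99 and 4.17. None of the genes of these 8 lists other than Il33 was called by edgeR between genotypes in either treatment.

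For each member the 3 genes with the most similar pattern were found by the root-mean-square difference of centred log2 CPM over the 12 libraries, which form 2 treatment clusters, so that likeness mostly reflects the size of the response. Mlkl was closest to the immunoproteasome gene Psmb8 (0.086), Irf1 (0.13) and Stx11 (0.14), and Casp1 to Irf1 (0.21), Psmb8 (0.23) and Mlkl (0.24). Casp4 was closest to B2m (0.17), the light chain of MHC class I, to Gbp7 (0.18) and to Zc3h12a (0.19). Gsdmd was closest to Irak3 (0.12), Misp (0.14) and Parp9 (0.15). Casp12 was nearest to Tgm2 (0.11), Il1rn (0.15) and Ass1 (0.16), Ripk3 to Fstl1 (0.14), Anxa1 (0.14) and Osmr (0.16), Ripk1 to Myd88 (0.059), Fermt2 (0.068) and Cndp2 (0.069), and Casp8 to Mindy1 (0.053), Lrrfip1 (0.059) and Tuba1c (0.067).

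Casp1, Casp4 and Casp12 lie next to each other on the plus strand of chromosome 9 (GRCm38): Casp1 at chr9:5298517-5307265, Casp4 at chr9:5308828-5336783, 1563 bases further on, and Casp12 at chr9:5345430-5373032, 8647 bases after Casp4. The rise was 13.8-fold, 15.3-fold and 4.28-fold in controls along this row. The nearest tested genes outside it did not rise in controls: the pseudogene Gm7390 had a log2 fold change of -0.13 (edgeR adjusted p = 0.773) and Pdgfd of -1.13 (edgeR adjusted p = 0.0116), 319343 and 795552 bases away. Casp8 (chr1:58795374-58847503, plus strand) follows Cflar, the gene of an inactive relative that binds Caspase-8, which rose by log2 0.77 (edgeR adjusted p = 8.0e-06), and on its other side Trak2 fell (-0.38, edgeR adjusted p = 0.0098). Next to Ripk1 (chr13:34002363-34037147, plus strand) Nqo2 rose by log2 0.80 and Bphl, 450 bases away, fell (-1.54, edgeR adjusted p = 8.4e-08). Next to Ripk3 (chr14:55784995-55788865, minus strand) Adcy4, 900 bases away, fell (-1.05, edgeR adjusted p = 0.0013), and Nfatc4 was at 0.47 (edgeR adjusted p = 0.331). Beside Gsdmd (chr15:75862327-75867408, plus strand) Zc3h3 fell (-0.80) and Mroh6 was at -0.76 (edgeR adjusted p = 0.189), and beside Mlkl (chr8:111311797-111338177, minus strand) Rfwd3 fell (-0.36) and Fa2h was at -0.80 (edgeR adjusted p = 0.112). These are values of controls. Under the bKO label Nfatc4 rose by log2 1.22 (edgeR adjusted p = 0.0194) and Pdgfd was at -0.55 (edgeR adjusted p = 0.163), while the other neighbours named were on the same side of the threshold as in controls.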

How the data were processed

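Total RNA was sequenced in 12 libraries, 3 in each of 4 groups taken from the titles. The authors deposited raw counts per gene for 55536 genes. The genome build GRCm38 and the tools STAR 2.5.2a, featureCounts 1.6.2, DESeq2 1.30.0, cutadapt 1.16 and FastQC 0.11.7 are those named by the submitters' processing notes. The sources used here give neither the annotation release nor the strand setting of the counting. Every per-sample column of counts was used. Genes were kept with filterByExpr, which left 19800, scaled by TMM and tested with the quasi-likelihood test of edgeR 4.0.16 (R 4.3.3). A coefficient was fitted per group over all 12 libraries, and p-values were adjusted by Benjamini-Hochberg over all genes tested, with calls at 0.05. Fold changes are on the scale of that fit. Each SE of edgeR was derived from the log2 fold change and the F statistic of that test. The 95% intervals were built from that SE with a t distribution. Levels are CPM of the TMM-scaled library size.

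The members, the 8 pathway lists and the 12 marker lists were chosen with earlier results of these data known. All members were named in every comparison. From each list, up to 4 genes with the smallest adjusted p in the cytokine comparison of controls and at least 5 CPM in the higher group were named, plus genes called between genotypes; some genes this rule names are not reported here. Predicted genes were left out of the search for the 3 nearest patterns. Pairs of libraries within a group were set against sampling noise (chi-square, genes of 20 or more counts); the lowest ratio to the degrees of freedom was 15.0, so each was treated as a separate library. The fit was tested on simulated data. Alternatives were DESeq2 size factors, library totals alone, no filter, robust dispersions, limma-voom (limma 3.58.1), DESeq2 1.42.0, a minimum of 1 CPM in 3 libraries, the groups compared alone, the filtered table, 2 replicate blocks and leaving out each library. Positions and exon lengths are from GENCODE M21 and promoter windows from RefSeq (GRCm38.p6).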

Additional observations from a re-analysis of the deposited data

How the results depend on the processing

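Over the alternatives, 904 values of the 8 genes were computed: 891 kept their side of the threshold (873 with the same sign, 18 with another sign, all of these 18 uncalled values between genotypes or between responses), 12 lost a call (Casp8 and Ripk3 in controls), 1 gained a call and 0 changed the sign of a called value. With cytokines DESeq2 called 1 member between genotypes, Ripk1. Members called higher in controls numbered 6 to 8, and 8 in islets labelled bKO under every alternative. Over all genes the genotype calls moved more than the members. Without cytokines 15 genes became 32 with no filter, 125 with DESeq2 and 121 with the compared groups alone. Leaving out a library gave 12 (without untreated labelled bKO replicate 2) to 59 (without treated labelled bKO replicate 2). With cytokines 46 genes became 190 with no filter, 675 with DESeq2 and 0 with the compared groups alone, and 4 (without treated control replicate 3) to 444 (without treated labelled bKO replicate 1). The difference between responses gave 0 genes, 1 with no filter and 183 with DESeq2. The cause was not tested.

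Replicate numbers are shared by the groups, but the 18 same-numbered pairs correlated at -0.43 to 0.13. Over the 6 pairs within a genotype the correlations were -0.10 to 0.11, and 4 of 12 libraries, all labelled bKO, correlated best with their own number, so the numbers were not taken to pair the libraries. A replicate block shared by all groups gave 11435 and 11754 calls with cytokines in controls and in islets labelled bKO, 12 and 7 between genotypes and 0 for the difference, with the members' calls unchanged. A block within genotype gave 11347 and 11634, and Casp8 in controls was then at log2 0.38 (adjusted p = 0.0540, edgeR).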

Other observations

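Other members of the gasdermin family and of the Caspase-8 complex, named after their values were seen, went in different directions with cytokines. Gsdma, a gasdermin best known from skin, rose from 132 CPM (SD 18, n = 3) to 422 (SD 69, n = 3) in controls and from 205 (SD 11, n = 3) to 455 (SD 122, n = 3) in islets labelled bKO (log2 1.68 and 1.15, edgeR adjusted p = 1.6e-05 and 2.5e-04), although it has near-identical copies whose reads could be split in counting. Gsdme, another gasdermin, was at 1.92 CPM untreated and 1.31 treated in controls (log2 -0.57, edgeR adjusted p = 0.205). Gsdmc2 had no count in any of the 12 libraries. Fadd, the adaptor that recruits Caspase-8, fell from 16.2 to 13.2 CPM in controls and from 16.9 to 12.6 in islets labelled bKO (log2 -0.30 and -0.43, edgeR adjusted p = 0.016 and 0.0020), while the receptor gene Tnfrsf1a rose from 106 to 288 CPM in controls (log2 1.44, edgeR adjusted p = 1.4e-07). Il18, a substrate of Caspase-1, was at 3.12 and 4.25 CPM in controls (log2 0.45, edgeR adjusted p = 0.067).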
